A study of Arabidopsis thaliana with 60 samples.

Results

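Transcript levels were compared in 12 Arabidopsis thaliana leaf libraries, of 60 in the whole series, that were harvested 180 min after infiltration with Mock solution, flg22, estradiol (Ed) or flg22+Ed. They were chosen by their treatment and time labels as the 4 treatments at this time in 3 independent experiments. All plants were of ecotype Col-0, carried the mutations dde2, ein2, pad4 and sid2 and an estradiol-inducible AvrRpt2 transgene (Ed-AvrRpt2), and were 4 weeks old. Mock was 0.1% ethanol, flg22 was given at 1 µM with no ethanol listed, Ed was 10 µM estradiol in 0.1% ethanol, and flg22+Ed held the same amounts of both in 0.1% ethanol. Each library pooled leaves infiltrated on 2 plants, and estradiol reached plants that all carry the transgene, so an effect of estradiol itself cannot be told apart from that of AvrRpt2. Since flg22 alone was listed without ethanol, the interaction also carries a difference in ethanol between the solutions.

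flg22 is a peptide of bacterial flagellin that the receptor kinase FLS2 binds at the cell surface, which starts pattern-triggered immunity: calcium influx, MAP kinase signalling and transcription of defence genes through WRKY, MYB and ERF factors. AvrRpt2 acts inside the cell: it is a protease of Pseudomonas syringae that cuts RIN4, and the nucleotide-binding receptor RPS2, which guards RIN4, then starts effector-triggered immunity. The mutated genes act in jasmonate synthesis (DDE2, also called AOS), ethylene signalling (EIN2), lipase-like immune signalling (PAD4) and salicylic acid synthesis (SID2, also called ICS1), which are the signalling sectors that usually connect these responses. The question was whether the response to both elicitors together equals the responses to each alone, combined either as a product of fold changes (log2 scale) or as a sum of increments (linear scale of CPM, a gene's count scaled to a common library total).

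Of 25036 genes in the table, 15649 passed the filter on low counts. On the log2 scale 120 genes had a negative interaction (0.767% of those tested) and 0 a positive one (0%), by edgeR's quasi-likelihood test with the experiment as a block and an adjusted p under 0.05. An unadjusted p under 0.05 was reached by 862 genes (5.51%), and DESeq2 and limma-voom also called 0 positive genes. On the linear scale 0 genes passed in either direction (0% and 0%) by limma on CPM, with 380 genes (2.43%) under an unadjusted p of 0.05. A log2 interaction of 0 means that flg22+Ed multiplied the level over Mock by the product of the single fold changes. A linear interaction of 0 means that its increment over Mock was the sum of the single increments.

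Each elicitor raised the 120 genes on its own. Of the 120, 30 belonged to the 26 gene lists described below, and some of the others are annotated only as uncharacterized proteins. Of 411 listed genes, 12 are in more than 1 list, so the calls counted in different lists overlap. All 120 rose after flg22 alone, all 120 rose after Ed alone and all 120 rose after flg22+Ed, against 17% of all genes tested that rose with flg22 (2668), 5.3% with Ed (829) and 21.1% with flg22+Ed (3295). These contrasts share libraries with the interaction, so the overlap is a description. The log2 interaction was negative in each of the 3 experiments for all 120, which were chosen for a negative value over these experiments. It ran from -6.33 to -1.56 with a median of -3.45, whereas the median over all genes tested was -0.04 and 53.8% of them were below 0. Mean levels in Mock ran from 0.0676 to 69.7 CPM with a median of 2.16 CPM. In flg22+Ed leaves they ran from 13.96 to 1861 CPM with a median of 133 CPM. Only 1 to 3 counts in all were held by the Mock libraries in 12 of the 120 genes.

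By arithmetic, the sum of increments lies below the product of fold changes wherever both single treatments raise a gene, so a sum appears as a negative log2 interaction. From the group means of Mock, flg22 and Ed alone, an exact sum would give the 120 genes a median log2 interaction of -3.39, and the measured flg22+Ed means gave -3.40. The 120 were chosen by a negative log2 interaction in these same libraries, so these medians and their ratios to the sum are a description. The level with flg22+Ed divided by the sum had a median of 0.927 over the 120 genes, with a range from 0.503 to 1.81. Over all genes tested with a sum above 0 this ratio had a median of 1.02. The 95% interval of the linear difference spanned 0 in 93 of the 120 genes, lay below 0 in 24 and above 0 in 3, with no adjustment for the number of genes. On simulated counts these intervals left out the true value more often than their level states in genes that respond to both elicitors. Choice by a negative log2 interaction in these same libraries also favours low flg22+Ed levels, so the 24 and 3 are a description.

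**Figure D1:**
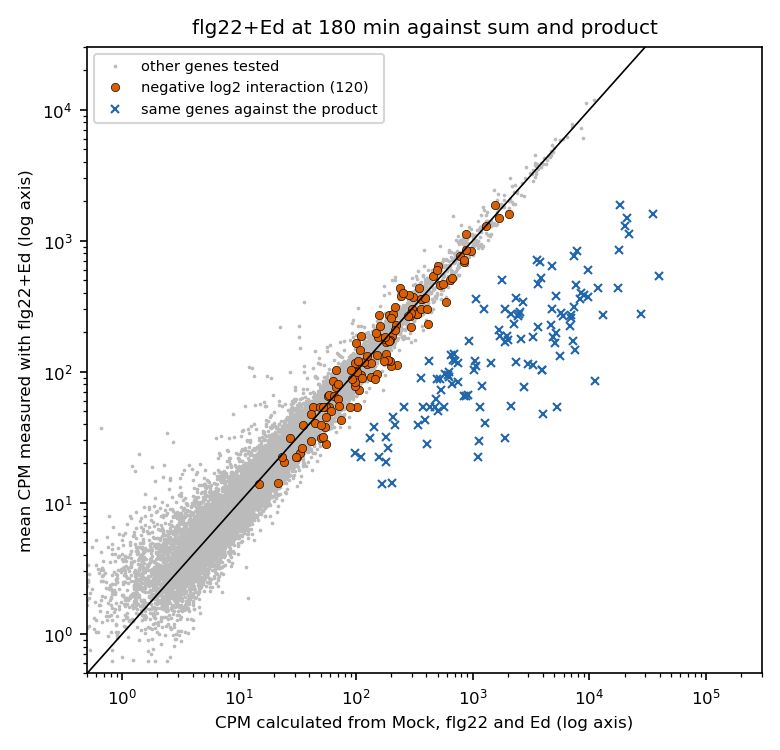
Mean CPM measured with flg22+Ed at 180 min (vertical, log axis) against the CPM calculated from the other 3 treatments (horizontal, log axis), with genes under 0.5 CPM on either axis not drawn. The 120 genes with a negative log2 interaction lie along the line of equality when plotted against the sum of the single effects (filled circles, median ratio 0.927) and far to the right of it when plotted against the product of the single fold changes (crosses). Their place to the right of the line against the product is fixed by their choice by a negative interaction.

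The genes whose call was most stable were WRKY33, CYP81F2 and IGMT2, which passed under every one of 23 alternative settings or left-out libraries. WRKY33 (AT2G38470) encodes a transcription factor that controls camalexin synthesis. Its level was 3.38, 3.85 and 3.25 CPM in the Mock libraries of experiments 1 to 3, 97.3, 126 and 137 CPM with flg22, 399, 165 and 163 CPM with Ed, and 380, 292 and 410 CPM with flg22+Ed. All treated libraries were above all Mock libraries, and the Ed library of experiment 1 lay within the range of the flg22+Ed libraries. The log2 interaction was -4.46 ± 0.49 (standard error, adjusted p = 0.00253), and the flg22+Ed mean of 361 ± 61.2 CPM (SD, n = 3) was 1.01 times the sum of 359 CPM. The linear difference was 2.68 CPM with a 95% interval of -134 to 139 CPM, with no adjustment for the number of genes. A departure from the sum smaller than these bounds was not detectable at this spread, and a larger one could also fail to pass after adjustment.

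CYP81F2 (AT5G57220) encodes a cytochrome P450 that modifies indole glucosinolates. It stood at 0.967, 2.23 and 1.63 CPM in Mock, 68.8, 95.8 and 119 CPM with flg22, 115, 55.1 and 78.6 CPM with Ed, and 145, 203 and 204 CPM with flg22+Ed. The flg22 and Ed libraries overlapped, and all flg22+Ed libraries were above them. The log2 interaction was -4.66 ± 0.52 (adjusted p = 0.00253), and the level with both was 1.05 times the sum. IGMT2 (AT1G21120), an indole glucosinolate methyltransferase gene, was at 0.483, 1.42 and 1.63 CPM in Mock, 257, 301 and 358 CPM with flg22, 238, 98.2 and 119 CPM with Ed, and 441, 652 and 526 CPM with flg22+Ed. Its flg22+Ed libraries were above every other library, and its log2 interaction was -6.21 ± 0.61 (adjusted p = 0.00171) with a ratio to the sum of 1.18. IGMT1, IGMT2, IGMT3 and IGMT4 are close copies, so their counts may share reads.

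The bases before the starts of these genes are shown because WRKY factors, which bind the W-box, are among the genes that moved. The 250 bases before the annotated start of each gene are printed 5′ to 3′ on the strand of the gene, from RefSeq's TAIR10.1 sequence, with W-boxes in capitals. A W-box was searched for as TTGACC and as TTGACT on both strands, so that it can also be printed as its reverse complement. CBP60G, described below, is added as a called gene without that motif in the window.
WRKY33, chr2:16107985-16108234, plus strand: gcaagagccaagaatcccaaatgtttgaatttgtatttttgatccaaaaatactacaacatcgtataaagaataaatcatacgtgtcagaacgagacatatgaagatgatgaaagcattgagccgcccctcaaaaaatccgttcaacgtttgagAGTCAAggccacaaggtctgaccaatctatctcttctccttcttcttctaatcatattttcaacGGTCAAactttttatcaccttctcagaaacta
CYP81F2, chr5:23187590-23187839, plus strand: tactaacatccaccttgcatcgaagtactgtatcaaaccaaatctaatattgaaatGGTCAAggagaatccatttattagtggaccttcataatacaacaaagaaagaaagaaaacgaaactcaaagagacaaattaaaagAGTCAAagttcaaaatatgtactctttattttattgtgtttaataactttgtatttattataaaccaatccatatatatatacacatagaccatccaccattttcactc
IGMT2, chr1:7396824-7397073, minus strand: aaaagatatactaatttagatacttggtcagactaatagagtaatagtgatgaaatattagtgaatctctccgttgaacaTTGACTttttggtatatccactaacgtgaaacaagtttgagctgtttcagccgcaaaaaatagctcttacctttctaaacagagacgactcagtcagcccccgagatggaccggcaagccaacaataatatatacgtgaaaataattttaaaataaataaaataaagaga
CBP60G, chr5:9475429-9475678, plus strand: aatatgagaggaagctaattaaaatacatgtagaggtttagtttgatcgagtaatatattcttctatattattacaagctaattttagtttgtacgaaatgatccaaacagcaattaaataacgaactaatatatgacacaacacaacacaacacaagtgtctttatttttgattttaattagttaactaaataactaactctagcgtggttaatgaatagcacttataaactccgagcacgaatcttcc
The W-boxes begin 96 and 32 bases before the start in WRKY33, 194 and 109 bases before it in CYP81F2 and 170 bases before it in IGMT2. A W-box was present in this window in 77 of the 120 genes (64.2%), in 351 of 670 genes that rose after each single treatment (52.4%) and in 4408 of 15558 genes tested with an annotated window (28.3%). A CGCG box of the kind that CAMTA factors bind (any of ACGCGT, of ACGCGG and of CCGCGT, on both strands) was present in 17 of the 120 (14.2%), in 77 of the 670 (11.5%) and in 3.79% of the genes tested. The G-box (CACGTG) was present in 6 of the 120 (5%) and in 7.34% of the genes tested. These are descriptions of letters in a window, without a test.

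Transcription factor genes were among the called genes of several families. Of 23 WRKY genes tested, 6 had a negative interaction (WRKY33, WRKY40, WRKY30, WRKY18, WRKY53 and WRKY6), 21 rose with flg22, 12 with Ed and 21 with flg22+Ed. Over all genes tested these shares were 0.767%, 17%, 5.3% and 21.1%. The median log2 interaction of the 23 was -1.26 by edgeR. From the group means it was -1.19, where the sum of the single effects would give -1.16. WRKY40 (AT1G80840), a repressor of the basal defence network, was at 2.18, 1.22 and 1.08 CPM in Mock, 47.4, 58.6 and 54.3 CPM with flg22, 101, 59.1 and 36.7 CPM with Ed, and 122, 91.1 and 143 CPM with flg22+Ed. Only the Ed library of experiment 1 reached the range of the flg22+Ed libraries. Its log2 interaction was -4.21 ± 0.53 (adjusted p = 0.00502) at 1.01 times the sum, and the call held in 19 of the 23 alternatives (adjusted p up to 0.115). WRKY30 (AT5G24110) had means of 0.658 CPM in Mock, 164 CPM with flg22, 28.7 CPM with Ed and 171 CPM with flg22+Ed, and a log2 interaction of -5.51 ± 0.88 (adjusted p = 0.015). It passed in 16 of the 23 alternatives (adjusted p up to 0.266). WRKY18 (AT4G31800), a close relative of WRKY40, stood lower against the sum: 146 CPM with flg22, 55.0 CPM with Ed and 123 CPM with both, a ratio of 0.647.

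**Figure D2:**
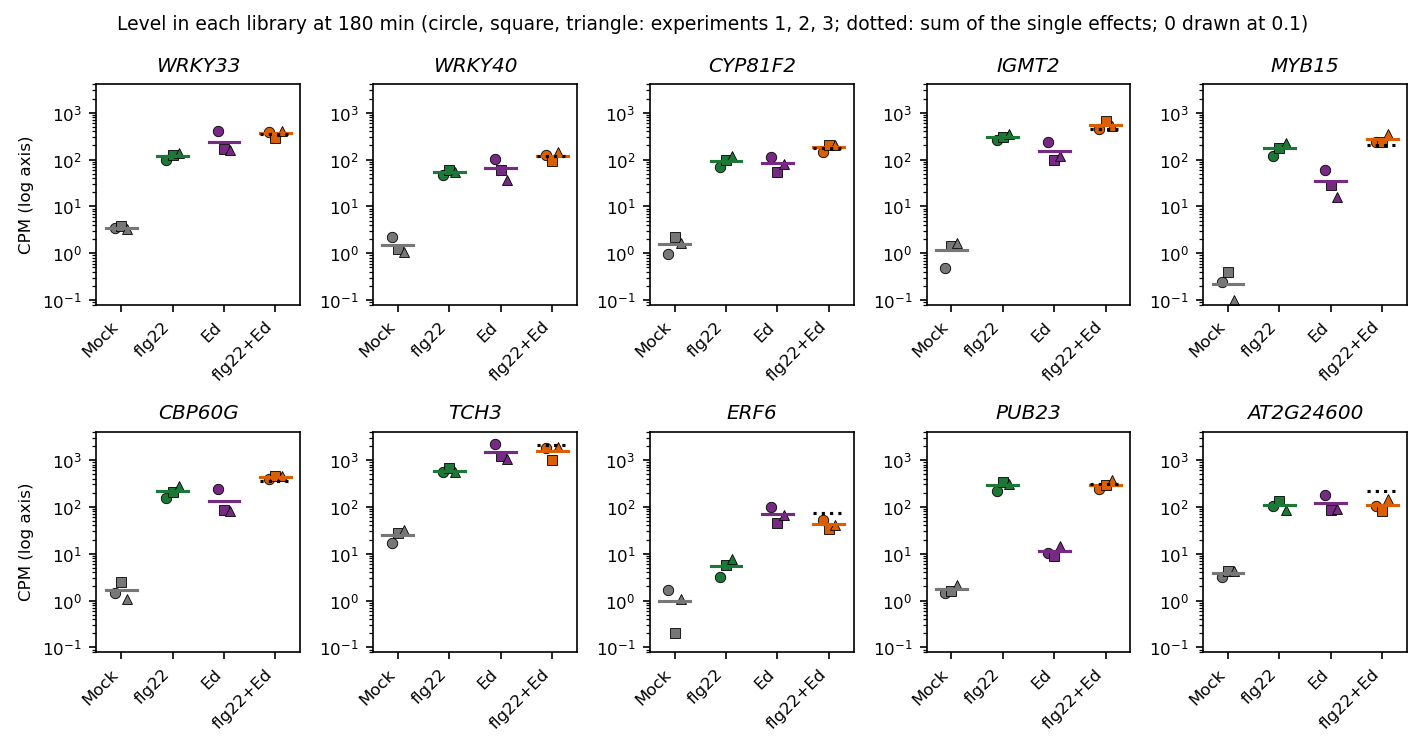
CPM at 180 min on a log axis for 10 genes in each library of the 4 treatments, with circles, squares and triangles for experiments 1, 2 and 3, horizontal bars for the mean of 3 libraries, a dotted bar for the sum of the single effects and values of 0 drawn at 0.1. The flg22+Ed mean lies at the dotted bar for WRKY33, WRKY40 and CYP81F2 (ratios of 1.01, 1.01 and 1.05), above it for MYB15 (1.32) and well below it for AT2G24600 (0.503).

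MYB factor genes were also called. MYB15 (AT3G23250) activates lignin genes in immunity. It had 3 counts in all in the Mock libraries (0.242, 0.406 and 0 CPM), then 122, 177 and 220 CPM with flg22, 59.3, 29.2 and 15.8 CPM with Ed, and 242, 234 and 348 CPM with flg22+Ed. Every flg22+Ed library was above every flg22 library, which in turn were above the Ed libraries. The ratio of flg22+Ed to Mock was 1060 with an exact 95% counting interval of 361 to 5130, and the log2 interaction was -6.12 ± 0.87 (adjusted p = 0.00859, 17 of 23 alternatives, adjusted p up to 0.326). MYB51 (AT1G18570), an activator of indole glucosinolate synthesis, had means of 0.863, 26.0, 99.1 and 115 CPM in Mock, flg22, Ed and flg22+Ed, with a log2 interaction of -4.31 ± 0.62 (adjusted p = 0.00859). Ed added to flg22 raised it by 2.15 on the log2 scale (adjusted p = 0.0109).

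MYB15 was the only called member of 17 phenylpropanoid and lignin genes tested, against 0.767% of all genes. Of the 17, 15 rose with flg22, 2 with Ed and 15 when flg22 was added to Ed, and their median log2 interaction was 0.06. The shares that rose over all genes tested were 17%, 5.3% and 12.7%. PAL1, the entry enzyme of the pathway, had means of 56.2, 663, 123 and 835 CPM in Mock, flg22, Ed and flg22+Ed, with a log2 interaction of -0.83 that did not pass (adjusted p = 1).

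Camalexin and indole glucosinolate genes held 5 called members of 24 tested (MYB51, CYP81F2, IGMT1, IGMT2 and IGMT3), against 0.767% of all genes. Their median log2 interaction was -1.81 by edgeR. From the group means of 23 of them it was -1.85, where the sum would give -1.52. IGMT3 (AT1G21110) had 3 counts in all in Mock, and reached 32.3 ± 10.5 CPM with flg22, 76.0 ± 35.4 CPM with Ed and 146 ± 41.3 CPM with flg22+Ed (SD, n = 3). Its log2 interaction was -5.71 ± 0.79 (adjusted p = 0.00859), in 18 of the 23 alternatives (adjusted p up to 0.070), and its ratio to the sum was 1.35. IGMT4 (AT1G21130), already at 73.1 CPM in Mock, had 305, 511 and 550 CPM with flg22, Ed and both and did not pass (adjusted p = 0.0983). PAD3, the last enzyme of camalexin synthesis, had 1 count in Mock and a flg22+Ed mean of 8.09 CPM, and its log2 interaction of -2.80 ± 1.92 did not pass (adjusted p = 1).

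Ethylene response factors held 4 called members of the 13 genes tested in the ethylene list (0.767% over all genes): ERF5, ERF6, ERF104 and ERF105. The plants carry ein2, and EIN2 itself had a log2 interaction of -0.47 (adjusted p = 1). The list median was -2.06 by edgeR. From the group means it was -1.84, where the sum would give -2.10. In ERF6, ERF104 and ERF105 the Ed mean was the highest of the 4 treatments. ERF6 (AT4G17490) was at 1.69, 0.203 and 1.08 CPM in Mock, 3.19, 5.86 and 7.55 CPM with flg22, 98.3, 45.2 and 65.6 CPM with Ed, and 52.7, 33.8 and 41.7 CPM with flg22+Ed. In each experiment the flg22+Ed library was below the Ed library. Its log2 interaction was -3.22 ± 0.64 (adjusted p = 0.0421), but it passed in only 7 of the 23 alternatives (adjusted p up to 0.37). The flg22+Ed level was 0.576 times the sum, with a linear difference of -30.8 CPM and an interval of -53.6 to -8.04 CPM (unadjusted p = 0.0119, adjusted p = 1). ERF5 (AT5G47230) had means of 2.08, 42.9, 50.1 and 103 CPM, a log2 interaction of -3.41 ± 0.54 (adjusted p = 0.0132, 16 of 23 alternatives, up to 0.318), and a ratio of 1.13.

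Calcium signalling held 2 called genes of 20 tested, against 0.767% of all genes. TCH3 (AT2G41100), a calmodulin-like protein gene, was at 16.7, 27.0 and 31.4 CPM in Mock, 558, 680.4 and 540.5 CPM with flg22, 2154, 1188 and 1071 CPM with Ed, and 1843, 1002 and 1925 CPM with flg22+Ed. The Ed and flg22+Ed libraries overlapped. Its log2 interaction was -4.46 ± 0.50 (adjusted p = 0.00253, 21 of 23 alternatives, up to 0.218), and its ratio to the sum was 0.78. CPK28 (AT5G66210), a calcium-dependent kinase that limits the immune receptor complex through BIK1, had means of 9.82, 43.1, 113 and 88.3 CPM, a log2 interaction of -2.44 ± 0.48 (adjusted p = 0.038, 11 of 23 alternatives, up to 0.666) and a ratio of 0.605.

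Salicylic acid genes gave 1 call in 13 tested (0.767% over all genes). ICS1, PR1 and FMO1, an enzyme gene of N-hydroxypipecolic acid synthesis, were too low to test. CBP60G (AT5G26920), a calmodulin-binding activator of salicylic acid synthesis, stood at 1.45, 2.43 and 1.08 CPM in Mock, 154, 207 and 283 CPM with flg22, 238, 84.8 and 80.0 CPM with Ed, and 393, 459 and 456 CPM with flg22+Ed. All its flg22+Ed libraries were above all others. The log2 interaction was -5.13 ± 0.66 (adjusted p = 0.00592) at 1.25 times the sum, and it was lost only without experiment 2 (adjusted p = 0.107). Its relative SARD1 (AT1G73805) rose with Ed but not detectably with flg22 (means of 2.43, 6.07, 55.8 and 68.2 CPM), and its log2 interaction of -1.20 ± 0.92 did not pass (adjusted p = 1). PBS3 (AT5G13320), which conjugates isochorismate with glutamate in salicylic acid synthesis, was at 2.42, 1.42 and 1.08 CPM in Mock, 3.19, 2.66 and 4.81 CPM with flg22, 86.4, 27.8 and 12.8 CPM with Ed, and 167, 163 and 98.6 CPM with flg22+Ed. In each experiment the flg22+Ed library was above the Ed library, and the mean was 3.23 times the sum, but neither scale passed (log2 interaction 0.88 ± 0.80, adjusted p = 1, and linear difference 98.6 CPM, unadjusted p = 0.019, adjusted p = 1).

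Among 20 pattern-response markers, 19 rose with flg22 and 12 with Ed, and 6 had a negative interaction (CYP81F2, PER4, MYB51, IGMT3, PUB23 and ERF6). Over all genes tested these shares were 17%, 5.3% and 0.767%. Of the 6, CYP81F2, MYB51 and IGMT3 are also counted in the camalexin and indole glucosinolate list, and ERF6 in the ethylene list. All 20 were below 0, with a median of -2.55, against 53.8% of all genes tested. PUB23 (AT2G35930), a ubiquitin ligase gene that restrains pattern-triggered immunity, was at 223, 344 and 310 CPM with flg22, 10.5, 8.83 and 14.7 CPM with Ed, and 246, 285 and 365 CPM with flg22+Ed, from 1.45, 1.62 and 2.168 CPM in Mock. The flg22 and flg22+Ed libraries overlapped throughout, and Ed added to flg22 changed the level by 0.02 on the log2 scale (adjusted p = 1). Its log2 interaction was -2.66 ± 0.36 (adjusted p = 0.00776, 18 of 23 alternatives, up to 0.766), at 0.989 times the sum. FRK1 (AT2G19190), a receptor kinase gene often used to mark the flg22 response, did not respond detectably to Ed: 197, 182 and 145 CPM with flg22, 0.291, 0.268 and 0.233 CPM with Ed, and 162, 104 and 166 CPM with both. Each of these Ed values lay below the CPM of 3 counts in its library (0.742 to 0.876 before TMM scaling). They rest on very few reads. The log2 interaction of FRK1, -1.51 ± 1.06, did not pass (adjusted p = 1), and neither did that of WRKY29 (-1.26 ± 0.68, adjusted p = 1).

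**Figure D3:**
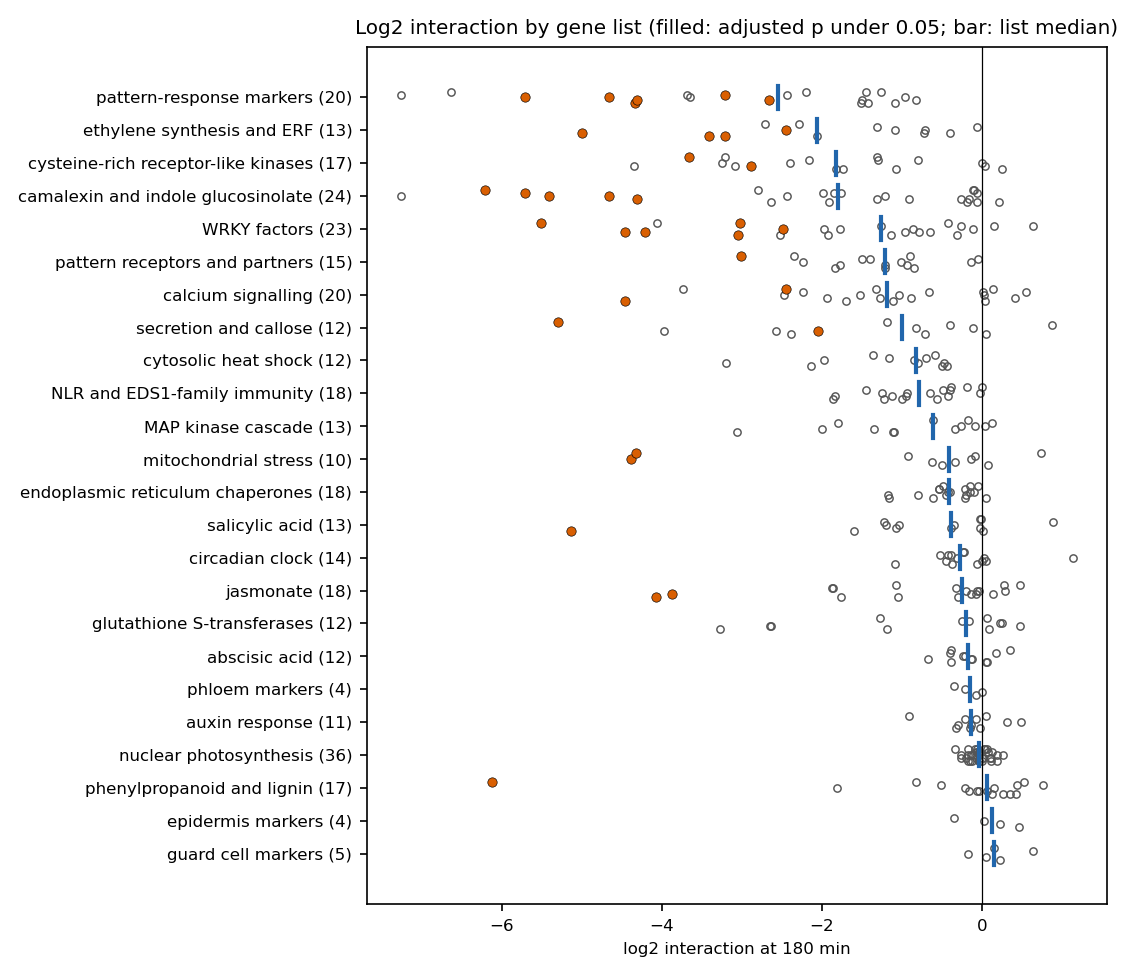
Log2 interaction at 180 min (horizontal) for each tested member of 24 gene lists, with the number tested in brackets, filled circles for an adjusted p under 0.05 and a bar for the list median. Called genes lie between -6.21 and -2.05, and no list has a called gene to the right of 0.

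Receptor and signalling lists held 0 to 2 calls each, against 0.767% of all genes tested. SOBIR1 (AT2G31880), a receptor kinase that partners receptor-like proteins, was the 1 called gene of 15 pattern receptors and partners (means of 7.00, 95.1, 46.2 and 90.5 CPM, log2 interaction -3.01 ± 0.57, adjusted p = 0.0328, 13 of 23 alternatives, up to 0.359). FLS2 itself rose with flg22 from 9.55 to 61.2 CPM, stood at 10.7 CPM with Ed and 55.1 CPM with both, and had a log2 interaction of -0.15 ± 0.57 (adjusted p = 1). Of 17 cysteine-rich receptor-like kinase genes, CRK11 (-3.66 ± 0.71, adjusted p = 0.0374) and CRK14 (-2.89 ± 0.51, adjusted p = 0.0238) passed, in 11 and 13 of the 23 alternatives (adjusted p up to 0.669 and 0.602). None of 13 MAP kinase cascade genes passed, a count that the share over all genes would also give, where MKK4 had the smallest p (-1.999 ± 0.58, adjusted p = 0.23). Likewise none of 18 genes of nucleotide-binding receptors and the EDS1 family passed. Of these 18, 11 rose with Ed and 9 with flg22, against 5.3% and 17% of all genes tested. RPS2 had a log2 interaction of -0.39 ± 0.62, RIN4 of -0.19 ± 0.33 and EDS1 of -1.86 ± 0.63 (adjusted p = 1, 1 and 0.41). ZAR1, a nucleotide-binding receptor gene, had the smallest p of this list (-1.84 ± 0.58, adjusted p = 0.322). PAD4, mutated in these plants, had means of 2.77, 10.3, 54.9 and 97.2 CPM and a log2 interaction of -0.93 ± 0.73 (adjusted p = 1), and Ed added to flg22 raised it by 3.24 on the log2 scale (adjusted p = 0.00654).

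Secretion and callose genes gave 2 calls in 12 tested, of which all 12 rose with flg22. Over all genes tested 0.767% were called and 17% rose with flg22. EXO70H4 (AT3G09520), an exocyst subunit gene, had 2 counts in all in Mock and means of 56.1, 12.1 and 77.1 CPM with flg22, Ed and both (log2 interaction -5.29 ± 0.82, adjusted p = 0.0117). SNAP33 (AT5G61210), a secretory SNARE gene, had means of 35.97, 288, 156 and 303 CPM (-2.05 ± 0.38, adjusted p = 0.0296, ratio 0.742). In the jasmonate list JAZ1, a repressor of jasmonate signalling (-3.87 ± 0.79, adjusted p = 0.0464), and LOX4, a lipoxygenase gene (-4.08 ± 0.62, adjusted p = 0.0117), passed of 18 tested, in plants mutant for AOS. AOS itself was at 0.29 ± 0.35 (adjusted p = 1). In the mitochondrial stress list OM66, an outer membrane AAA ATPase gene (-4.38 ± 0.80, adjusted p = 0.0284), and DIC2, a dicarboxylate carrier gene (-4.32 ± 0.74, adjusted p = 0.0195), passed of 10 tested. EXO70H4 passed in 18 of the 23 alternatives and LOX4 in 17, and SNAP33, DIC2, OM66 and JAZ1 passed in 12, 12, 11 and 8.

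Several further lists held no call, a count that the share of 0.767% over all genes tested would also give in lists of their size. Of 18 endoplasmic reticulum chaperone genes, 17 rose with flg22, 1 with Ed and 16 when flg22 was added to Ed. Over all genes tested these shares were 17%, 5.3% and 12.7%. The list's median log2 interaction was -0.41 by edgeR and -0.40 from the group means, where the sum would give -0.23. BIP2, an endoplasmic reticulum HSP70 gene, had means of 52.7, 1084, 83.9 and 990.2 CPM in Mock, flg22, Ed and flg22+Ed (log2 interaction -0.80, adjusted p = 1). Of 12 cytosolic heat shock genes 11 rose with flg22 and 6 with Ed, and the smallest p was that of HSP90.1 (-2.14 ± 0.72, adjusted p = 0.408). Among 36 nuclear photosynthesis genes, 4 fell with flg22, 0 with Ed and 25 with flg22+Ed, and their median log2 interaction was -0.04. Over all genes tested 9.21%, 0.115% and 15.1% fell, so the counts with flg22 alone and Ed alone are near the shares of all genes. Lists for glutathione S-transferases (12 tested), auxin (11), abscisic acid (12), the circadian clock (14) and N-hydroxypipecolic acid (1) held no call by edgeR either. The smallest p in these lists belonged to GSTF7 (-3.27 ± 0.88, adjusted p = 0.176), IAA19 (-0.92 ± 0.45, adjusted p = 1), RAB18 (-0.68 ± 0.36, adjusted p = 1), LUX (1.137 ± 0.40, adjusted p = 0.471) and SARD4 (-0.53 ± 0.50, adjusted p = 1). GSTF7, a glutathione S-transferase gene, had means of 18.6, 1459, 171 and 1668 CPM in Mock, flg22, Ed and flg22+Ed, 1.03 times the sum.

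The 8 genes with the most negative called values held IGMT2, MYB15 and IGMT3, described above, and 5 from outside these lists. PP2-B13 (AT1G56240), a phloem protein 2 family gene, had the most negative value. It had 1 count in all in Mock, then 22.4, 14.4 and 26.4 CPM with flg22, 54.7, 35.6 and 37.9 CPM with Ed, and 92.5, 55.0 and 107 CPM with flg22+Ed. The 3 treatments did not overlap, and the log2 interaction was -6.33 ± 0.62 (adjusted p = 0.00171, 22 of 23 alternatives, up to 0.070). Its ratio of flg22+Ed to Mock was 1020 with a counting interval of 183 to 40500. AT2G04495, AT4G18250 (a receptor kinase-like gene), AT5G22520 and AT3G48640 had log2 interactions of -5.94 ± 1.1, -5.92 ± 0.86, -5.82 ± 1.08 and -5.68 ± 1.1 (adjusted p = 0.0318, 0.00985, 0.03 and 0.0373) with 1 to 5 Mock counts each. They passed in 11, 18, 12 and 12 of the 23 alternatives, with adjusted p up to 0.369, 0.126, 0.567 and 0.366, and AT4G18250 ranged from -8.65 to -5.02.

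The called genes divided by where flg22+Ed stood against the single treatments. Its mean was above both single means in 92 of the 120 genes, between the larger single mean and the sum in 49, above the sum in 43 and below the larger single mean in 28. In 1504 genes chosen by their rises at 300 min, described below, these counts at 180 min were 1169, 481, 692 and 335. The splits were not compared by a test, so neither is shown to be particular to its genes. At the low end of the 120, AT2G24600, an ankyrin repeat protein gene, was at 3.14, 4.26 and 4.34 CPM in Mock, 107, 133 and 86.9 CPM with flg22, 177, 85.1 and 91.2 CPM with Ed, and 105, 82.5 and 149 CPM with flg22+Ed. All 3 treatments overlapped. Its flg22+Ed level was 0.503 times the sum, with a linear difference of -110 CPM (95% interval -168 to -52.1, unadjusted p = 0.00128, adjusted p = 1), and its log2 interaction was -4.84 ± 0.50 (adjusted p = 0.00183). Its group means gave -4.87, where the sum would give -3.88. Among the 24 genes whose linear interval lay below 0 were also PP2-A5 (0.57 times the sum), NAC036 (0.53), CYP707A3, an abscisic acid catabolic gene (0.606), CPK1 (0.693), ERF105 (0.766) and CRK14 (0.729). The 3 genes with an interval above 0 were ZAT11, a zinc-finger gene (1.71 times the sum, 271 against 159 CPM), AT1G09932 (1.68) and AT5G44585 (1.58). PP2-A5, NAC036, CYP707A3, CPK1, ZAT11, AT1G09932, AT5G44585 and AT2G24600 were picked out after their values were seen.

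The log2 effect of a treatment on top of the other minus its effect alone is the interaction itself, so in genes chosen for a negative interaction it is smaller by that choice, and the values are a description. The flg22 effect had a median of 4.84 alone and 1.19 when added to Ed, and the Ed effect 4.498 alone and 0.74 when added to flg22. Adding Ed to flg22 raised 22 of the 120 genes past the threshold, against 160 of all genes tested (1.02%). Adding flg22 to Ed raised 67 of the 120, against 1987 of all (12.7%). Over all genes, falls were rarer than rises when Ed was the added treatment: 2 genes fell (0.0128%), AT3G21352 by 1.68 and ERD5, a proline dehydrogenase gene, by 1.22 on the log2 scale. With Ed alone 18 genes fell (0.115%), with flg22 alone 1442 (9.21%), with flg22 added to Ed 1149 (7.34%) and with flg22+Ed against Mock 2364 (15.1%). Scaled by library sizes alone, the share of rises among the calls was 54.7% rather than 64.9% for flg22 alone, 50.4% rather than 63.4% for flg22 added to Ed, and 49.4% rather than 58.2% for flg22+Ed against Mock. That scaling moved the median log2 change of all genes by -0.119, -0.143 and -0.144, but the median interaction by only -0.0254.

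**Figure D4:**
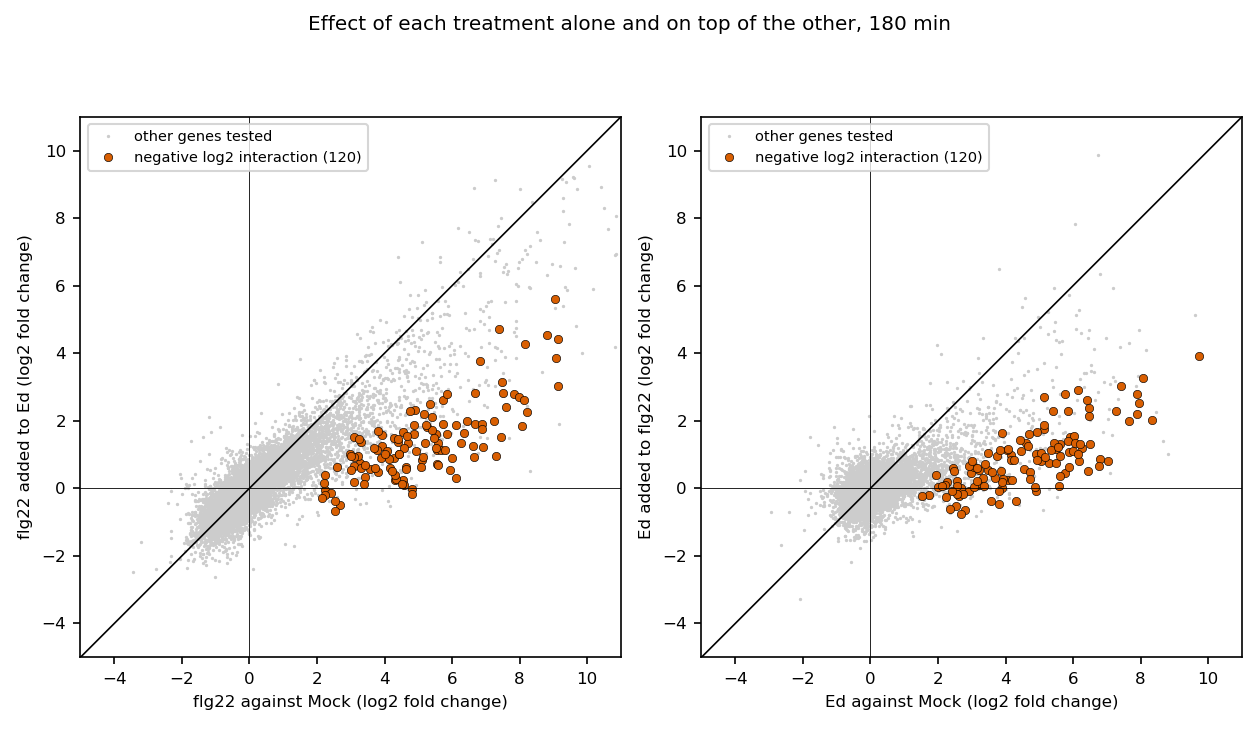
Log2 fold change of each treatment on top of the other (vertical) against its log2 fold change alone (horizontal), left for flg22 and right for Ed, with the line of equality. The 120 genes with a negative interaction (filled circles) lie below the line in both panels, as their choice by a negative interaction fixes, with medians of 4.84 alone and 1.19 added for flg22 and 4.498 alone and 0.74 added for Ed.

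Genes chosen in 1 pair of groups were also read in the other pair, which has no library in common with the first. The 829 genes that rose with Ed alone had a median log2 effect of 2.52 there and 0.83 in flg22-treated leaves. In those leaves 147 (17.7%) also passed, against 1.02% of all genes tested. Of the 160 genes that rose when Ed was added to flg22, those 147 (91.9%) had also risen with Ed alone, against 5.3% of all genes tested. The median effect of Ed in the 160 was 2.43 with flg22 and 4.36 without it. It was larger without flg22 in 135 of the 160. The 2668 genes that rose with flg22 alone had medians of 1.80 alone and 1.17 on top of Ed, and the 1987 that rose on top of Ed had medians of 1.498 there and 1.92 alone. The median Ed effect was thus smaller with flg22 in whichever pair the genes were chosen, and likewise the median flg22 effect with Ed.

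To describe the responders without choosing them on the 180 min libraries, genes were taken that rose with flg22 alone and with Ed alone at 300 min, a time at which 22.4% and 16.2% of the genes tested rose and 18.3% and 5.99% fell. Of 1519 such genes, 1504 were among the 15649 tested at 180 min, and 115 of the 120 were among these 1504. Their log2 interaction at 180 min had a median of -0.85 and was below 0 in 1355 of them, while the ratio of flg22+Ed to the sum had a median of 0.982. At 180 min 553 of the 1504 rose with both single treatments, against 670 of all 15649 genes tested. These had a median log2 interaction of -1.96 by edgeR and a median ratio of 0.99. From the group means of 544 of them the median was -1.91, where the sum would give -1.81. The 553 were picked by their 180 min calls, in libraries that also enter the interaction and the sum, so their values are a description. The other 951 had a median of -0.43 by edgeR. From the group means of 941 of them it was -0.418, where the sum would give -0.34. Sum and product thus lie close together for these genes, and the ratio of 0.982 rests mostly on genes that hardly tell sum and product apart. The Mock 300 min library of experiment 2 stood apart on a clock gene, with LHY at 325 CPM against 1.44 to 4.65 CPM in the other 11 libraries of that time. Without it 1415 genes were chosen, 1401 were tested, 1284 were below 0 and the medians were -0.90 and 0.982. At 180 min LHY was between 5.50 and 25.6 CPM in all 12 libraries.

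The experiments differed in these values. Over the 120 genes the ratio of flg22+Ed to the sum had medians of 0.751, 0.974 and 1.06 in experiments 1, 2 and 3, and the log2 interaction had medians of -3.94, -2.95 and -2.27. Over the 1504 genes the ratio had medians of 0.836, 1.12 and 1.03. In experiment 1 the Ed library was the highest of the 3 Ed libraries for WRKY33, WRKY40, IGMT2, CBP60G, TCH3, ERF6 and AT2G24600. Whether this has a part in the ratio below 1 was not tested.

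**Figure D5:**
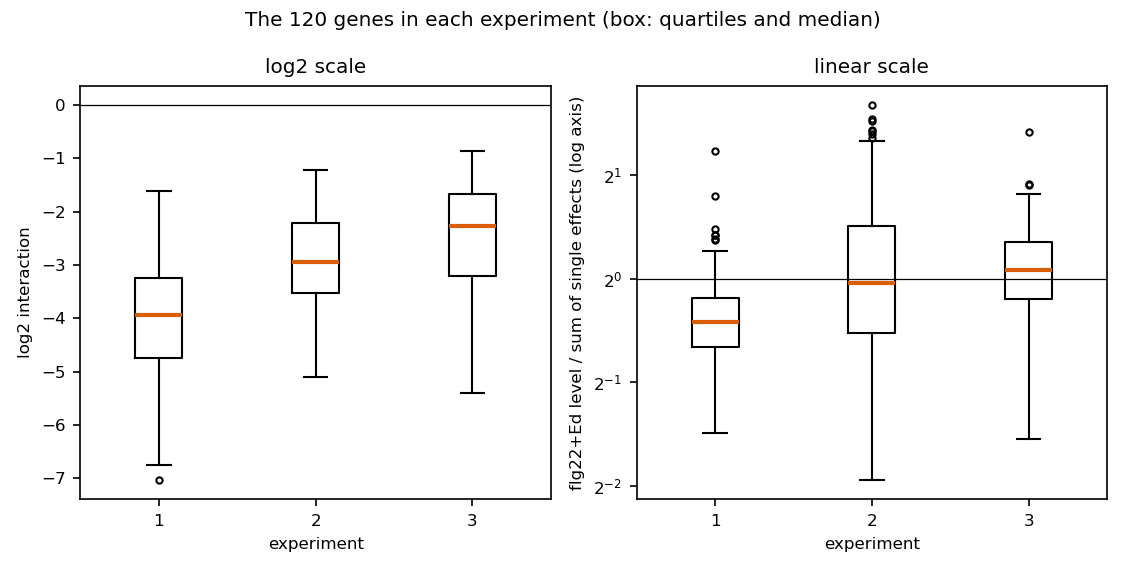
The 120 genes in each experiment, with the log2 interaction on the left and the flg22+Ed level divided by the sum of the single effects on the right (log axis), as boxes of quartiles with the median in colour. The log2 interaction is below 0 for all 120 genes, chosen for a negative value over these experiments, in all 3 experiments. The ratio has medians of 0.751, 0.974 and 1.06.

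The interaction had 0 calls at 60 min and at 120 min (0% each way by edgeR, with 350 and 383 genes under an unadjusted p of 0.05). At 300 min 617 genes were negative (3.92%) and 17 positive (0.108%), and 108 of the 120 were among the 617 (90% of the 120, 17.5% of the 617). Without the Mock 300 min library that stood apart, 507 were negative, 10 positive and 104 of the 120 among them. The difference between 180 and 300 min was tested itself and passed in 0 genes, with 603 genes (3.71%) under an unadjusted p of 0.05 and a smallest adjusted p of 0.457. The smallest p values belonged to AT2G28570, GH3.3, KCS12, AT5G44582 and AT5G41890, each with a more negative interaction at 300 min. Nothing here is therefore shown to be particular to 180 min.

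Library totals ran from 1458920 to 4330003 counts, and flg22+Ed of experiment 2 was the smallest. That library had Spearman correlations of 0.878 and 0.908 with the other flg22+Ed libraries. Markers of leaf tissue were high: 36 nuclear photosynthesis genes summed to between 149000 and 197000 CPM in Mock and between 105000 and 153000 CPM in flg22+Ed. Root markers summed to at most 0.268 CPM, with 2 of 3 at 0 in all 12 libraries. Epidermis markers summed to 662 to 692 CPM in Mock, 708 to 853 CPM with flg22, 439 to 606 CPM with Ed and 543 to 743 CPM with flg22+Ed, so that every flg22 library was above and every Ed library below the Mock libraries. Guard cell markers summed to 58.5 to 92.8, 35.7 to 74.4, 64.4 to 81.9 and 30.6 to 87.8 CPM in the same order, and phloem markers to 425 to 616, 482 to 594, 455 to 650 and 455 to 625 CPM, with overlap between treatments. None of these 13 marker genes tested passed by edgeR for the interaction or a single treatment, and the part of cell type shares in the results was not tested. In these bulk libraries fewer cells of a type and less RNA per cell cannot be told apart.

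The number of calls rested on single libraries. All 120 genes kept a negative value under all 23 alternatives. They were chosen for a negative value in these libraries, most of which every alternative reuses, so the kept direction is a description. Of the 120, 14 were called in 20 or more alternatives and 3 in all. The count was 16 without Mock of experiment 1, 12 without Mock of experiment 2, 25 without flg22 of experiment 2, 55 without flg22 of experiment 3, 31 without flg22+Ed of experiment 1 and 227 without Ed of experiment 3. It was 7 without experiment 1 as a whole and 13 without experiment 2. The counts in the gene lists moved with it. Without Mock of experiment 1 the WRKY list held 2 calls rather than 6, the pattern-response list 1 rather than 6, the ethylene list 1 rather than 4, the camalexin and indole glucosinolate list 2 rather than 5, and the cysteine-rich receptor-like kinase, secretion, jasmonate and mitochondrial lists 0 rather than 2.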

How the data were processed

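Smart-3SEQ libraries were prepared from pooled leaves, with 5 bases of molecular identifier in each read, per the labels' protocols. According to the submitters' processing notes, bcl2fastq 2.17.1.14, STAR 2.4.2a and TAIR10 were used. The authors deposited whole-number read counts per gene, 1 column per library. How reads were counted (tool, annotation, strand, collapsing of identifiers) is not given in the sources used, so overlapping and antisense genes cannot be told apart.

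From these counts, genes were filtered with edgeR 4.0.16 (filterByExpr by treatment, R 4.3.3), scaled by TMM (factors 0.873 to 1.14) and fitted over the 12 libraries of 180 min with treatment and experiment as terms, which left 6 residual degrees of freedom. The log2 interaction was tested with the quasi-likelihood test, and its standard error was worked back from the F statistic. The linear interaction was tested on TMM-scaled CPM with limma 3.58.1, weighted by the inverse of the count model's variance. All p-values were two-sided and adjusted by Benjamini-Hochberg over all genes tested, with a threshold of 0.05. Values per experiment used a prior count of 2. Printed CPM were TMM-scaled. The level against the sum used group means. Ratios against a Mock total of 1 to 3 counts have exact 95% intervals, which cover counting error only.

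The design text calls the replicates independent experiments, so the same number was taken to mark the same experiment. The block and all values per experiment rest on this reading. Deviations from group means correlated with a median of 0.115 over 18 same-experiment pairs (-0.343 to 0.595, 9 above 0.1) and -0.0433 over 36 other pairs. With Mock, flg22 and Ed of its own number, flg22+Ed correlated at 0.518, 0.595 and 0.0715 (experiment 1), -0.178, -0.129 and -0.343 (2), and -0.173, -0.137 and -0.0614 (3). flg22+Ed of experiment 2 correlated at 0.49, 0.481 and 0.259 with those of experiment 3. That of experiment 3 correlated at 0.156, 0.208 and 0.195 with those of experiment 2. The reason was not tested. No 2 libraries held identical counts.

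Genes were named by a rule: the 8 most negative and 8 most positive called interactions, the 6 most extreme called linear ones in each direction, a set of 16 pathway genes, up to 3 called members of each list on each scale (or the uncalled member with the smallest p), and the 5 smallest p for the difference between 180 and 300 min. The comparison, the 26 gene lists and this rule were chosen with earlier results of these data known. Other genes printed were picked after their values were seen. Both tests were tested on simulated data. Alternatives were other scalings, filters and tools (DESeq2 1.42.0, limma-voom), no block, all 60 libraries, and leaving out each library and each experiment. Sequences and gene products were taken from RefSeq's TAIR10.1, matched by gene identifier (24888 of 25036 genes).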

Additional observations from a re-analysis of the deposited data

How the results depend on the processing

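All 120 negative values stayed negative under all 23 alternatives, which reuse most of the libraries that the genes were chosen in. The count of calls moved. It was 265 with DESeq2, 65 with limma-voom and 31 with all 60 libraries in 1 fit. Other scalings and filters gave 119 to 137. Leaving out a library or an experiment gave 7 to 227, where fewer libraries also leave fewer degrees of freedom. The cause of the other shifts was not tested. Over left-out libraries and experiments the negative calls ranged from 1 to 9 in the pattern-response list, 1 to 8 in the WRKY list, 2 to 7 in the camalexin and indole glucosinolate list, 0 to 5 in the ethylene, secretion and receptor lists, 0 to 3 in the calcium and cysteine-rich receptor-like kinase lists, and 0 to 2 in the jasmonate, mitochondrial, salicylic acid and phenylpropanoid lists.

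Without the replicate block 135 genes were called negative, and 115 of the 120 were among them. The falls were 4 for Ed alone and 1 for Ed added to flg22. That last count was also 1 with library sizes alone. Of the genes named, ERF6 lost its call without the block.

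When a library or an experiment was left out, positive interactions numbered 0 to 1: AT1G15010 (2.97, adjusted p = 0.0435 by edgeR) without Ed of experiment 1, and AT1G12030 (3.61, adjusted p = 0.0416 by edgeR) without flg22+Ed of experiment 2. Linear calls numbered 0 to 1: AT3G61390 (13.8 CPM, adjusted p = 0.0238 by limma) without Ed of experiment 1. Without an experiment, rises and falls with flg22 alone ranged from 1629 to 2006 and from 320 to 527, with Ed alone from 320 to 897 and from 0 to 9, with Ed added to flg22 from 17 to 117 and from 0 to 1, with flg22 added to Ed from 901 to 1561 and from 79 to 610, and with flg22+Ed against Mock from 2232 to 2792 and from 967 to 1607. Uncalled values that changed sign ranged from -0.35 to 0.11 for RIN4, -1.03 to 0.19 for RPS2, -0.87 to 0.36 for FLS2, -0.14 to 1.02 for FAMA, -0.58 to 0.0396 for ATML1 and -0.50 to 0.21 for PP2-A1. The median ratio of flg22+Ed to the sum was 0.849 to 1.018 without an experiment.

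With 3 libraries a treatment, departures from the sum smaller than the printed intervals were not detectable at this depth.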
